A study of Mus musculus with 24 samples.

Results

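The Ly6 genes described here are Ly6d, Ly6k, Ly6e, Ly6a, Ly6c1 and Ly6h, 6 of the 21368 genes with a symbol on a 1-colour Agilent mouse array. They were read by 8 of its 55681 probes, with 2 probes each for Ly6c1 and Ly6h. The set was chosen by its family name and on one measured value: the study describes Ly6d as raised in knockin livers. The liver difference of Ly6d is therefore given as a description, with no test. The arrays read RNA from 4 tissues (liver, brain, heart and skeletal muscle), each taken from the same 6 females. In 3 of them (KI mice A, B and C) both copies of Rap1 carried the I312R point mutation, which keeps the telomere protein RAP1 from binding its partner TRF2. The other 3 (WT mice D, E and F) were wild type, and per the study's methods the line had been made with Crispr/Cas9 and backcrossed to the C57BL/6N strain. Age was 14 months for KI C and WT F and 15 months for the other 4 mice, and the 24 arrays make up 8 groups of 3. The mutation is carried in every cell from conception, and an expression probe does not read it, so the genotype labels were not checked with these data.

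Ly6 proteins are small cysteine-rich proteins with the 3-finger fold that they share with snake toxins, and most are held in the outer leaf of the cell membrane by a lipid (GPI) anchor. Many of their genes lie side by side in one cluster on mouse chromosome 15, and several are known mainly as surface markers that sort blood cells. Ly6d marks progenitors committed to the B cell line and is also made by squamous epithelium. Ly6a (Sca-1) marks blood stem cells and many endothelial cells, Ly6c1 is made by endothelial cells and, with its near copy Ly6c2, gives the Ly6C antigen of monocytes. Ly6e (Sca-2) is a widely made, interferon-inducible member, Ly6h is a neuronal member known to act on nicotinic receptors, and Ly6k is best known from testis and tumors.

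Values are levels, that is log2 of the processed signal minus log2 of the array's 75th percentile, so 0 is a bright probe and 1 unit is a doubling of signal. That percentile lay between signals of 312.5 and 2519.4, and each array had 49.4% to 68.4% of its probes well above background. Marker genes fitted the labelled tissues, since the summed level of hepatocyte genes was 2941 to 5616 in liver, that of neuronal genes 384 to 465 in brain, that of cardiomyocyte genes 2296 to 3505 in heart and that of skeletal muscle genes 5992 to 8201 in muscle. Some arrays stood apart. The mean level of skeletal muscle genes was 0.88 in the liver of KI C and -5.36 to -4.61 in the other livers, and that of hepatocyte genes was 4.05 in the brain of KI C and -2.47 to -1.22 in the other brains. The muscle of KI B had a summed level of 43.2 for mammary and glandular genes against 4.63 to 8.86 in the other muscles. Monocyte and neutrophil genes had a mean level of 1.46 in the muscle of KI B and of 1.41 in that of WT D, against -3.30 to -2.85 in the other 4. All liver arrays were on one slide and all muscle arrays on another, and brain and liver RNA came from a different kit than heart and muscle RNA, so slide, kit and tissue cannot be fully told apart.

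**Figure D1:**
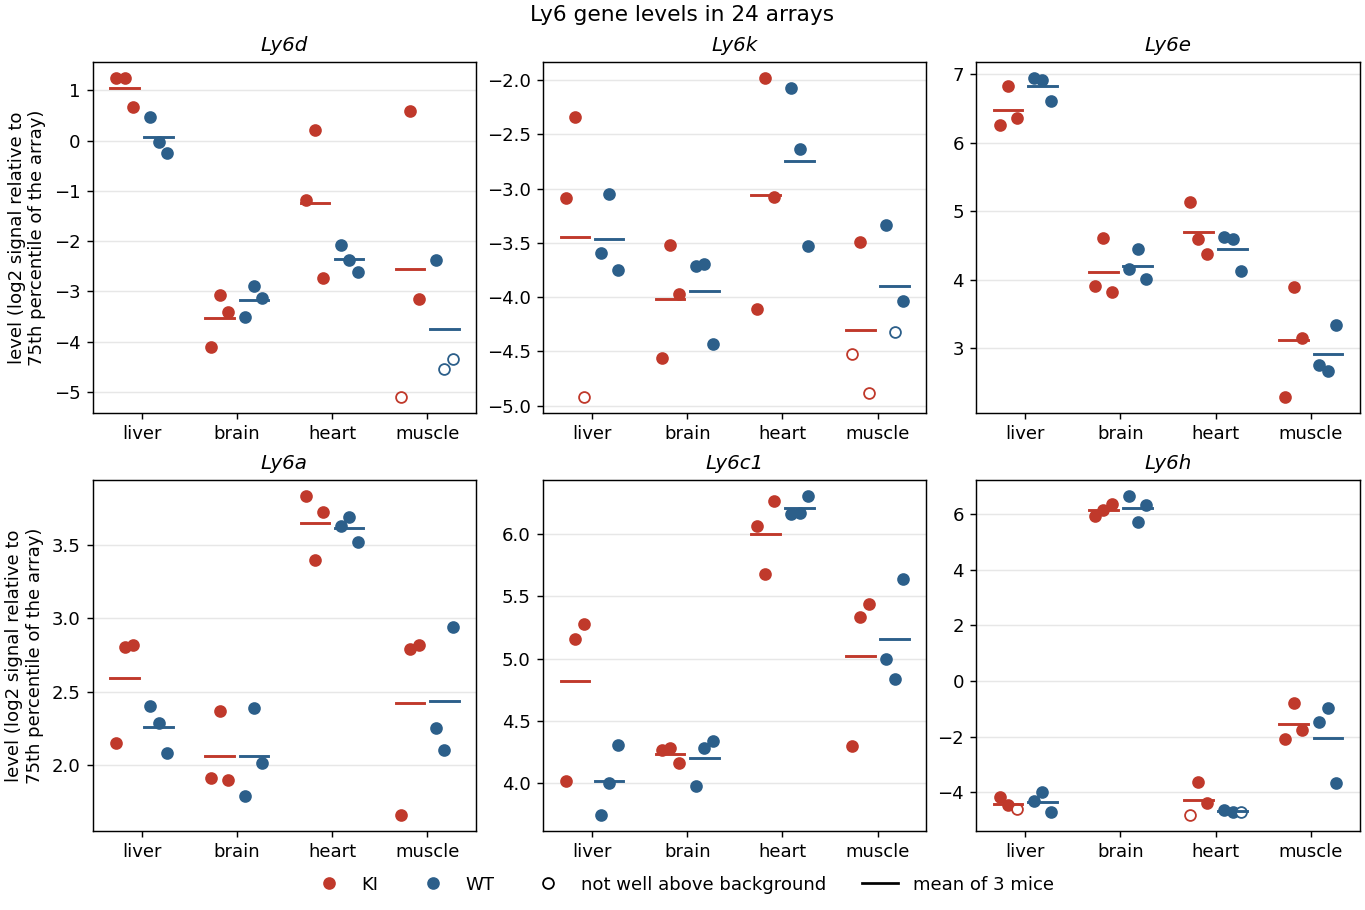
Level of each Ly6 gene (log2 signal relative to the array's 75th percentile) in liver, brain, heart and muscle, with KI mice in red, WT mice in blue, a line at the mean of 3 mice and open circles where the probe was not well above background. Ly6d and Ly6e sat highest in liver, Ly6a and Ly6c1 in heart and Ly6h in brain, where its 6 values lay between 5.71 and 6.64.

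The liver values of Ly6d chose the set, so its separation of the genotypes there is no basis for a contrast with the other tissues. The level in liver was 1.24, 1.25 and 0.66 in KI mice A, B and C and 0.47, -0.03 and -0.24 in WT mice D, E and F. The 3 KI livers all lay above the 3 WT livers, with KI C and WT D the closest to each other across the genotypes. The group levels were 1.05 ± 0.34 in KI and 0.07 ± 0.37 in WT livers (SD, n = 3 each), a difference of 0.98 on the log2 scale or 1.98-fold, which ran from 0.83 to 1.18 when each mouse was left out in turn and was 1.18 without KI C, whose liver held skeletal muscle signal. Such separation was frequent in liver: the genotypes did not overlap for 19.7% of all 14092 genes tested there. In these bulk samples, more cells of a type and more RNA per cell cannot be told apart.

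In the other tissues the genotypes overlapped for Ly6d. Heart levels were -1.18, 0.20 and -2.72 in KI A, B and C and -2.07, -2.37 and -2.61 in WT D, E and F. KI A and B were above all WT hearts, while KI C was below them. The difference between KI and WT hearts was 1.12 (SE 0.67, 95% interval -0.47 to 2.70, limma adjusted p = 0.971), and it was 0.40 without KI B. Muscle ranged more widely still, with -5.09, 0.59 and -3.16 in KI mice against -2.37, -4.54 and -4.33 in WT. The difference of the muscle means was 1.20. Ly6d was well above background in the muscles of KI B, KI C and WT D alone and was not tested there. Brain levels were -4.11, -3.06 and -3.41 in KI mice against -3.51, -2.88 and -3.14 in WT, a difference of -0.35 (SE 0.30, 95% interval -1.05 to 0.35, limma adjusted p = 1.00). Without KI C, whose brain held hepatocyte signal, it was -0.41.

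Across tissues, the Ly6d probe was brightest in liver in 6 of 6 mice. The mean level was 0.56 ± 0.62 in liver, -1.79 ± 1.12 in heart, -3.15 ± 2.08 in muscle and -3.35 ± 0.44 in brain (SD, n = 6 each). WT mice alone gave the same leading tissue, with a mean level of 0.07 in liver against -2.35 in heart, -3.18 in brain and -3.75 in muscle. Liver exceeded heart by 2.35 (SE 0.68, 5.09-fold, limma adjusted p = 0.00402), muscle by 3.71 (SE 0.68, limma adjusted p = 5.35e-05, with 3 of 6 muscles well above background) and brain by 3.91 (SE 0.68, 15.0-fold, limma adjusted p = 2.99e-05). These contrasts averaged both genotypes, so they include the liver values that chose Ly6d. The WT mice were not tested alone. Heart and muscle, next to each other in this order, differed by 1.36 (SE 0.68, 95% interval -0.06 to 2.78, limma adjusted p = 0.0831). That p became 0.0448 once the mouse entered the fit as a replicate block. Without KI B it was 0.00288, and with the deposited scores 0.0497. It rose to 0.361 without KI A, 0.242 without WT E and 0.198 without WT F. With a normexp background correction the difference was 0.26 (adjusted p = 0.565). The remaining alternatives gave an adjusted p of 0.0711 to 0.0917. Heart exceeded brain by 1.56 (limma adjusted p = 0.0420), a call that was lost on leaving out KI A, WT D, WT E or WT F (adjusted p = 0.0661, 0.120, 0.0885 and 0.0911) and under quantile normalization, median centering and the deposited scores (adjusted p = 0.0634, 0.0588 and 0.0547). Muscle and brain differed by 0.20 (SE 0.68, 95% interval for brain minus muscle -1.63 to 1.22, limma adjusted p = 0.790).

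The arrays with the most Ly6d in heart and muscle, both from KI B, were also high in many genes of white blood cells and of other lists. Ms4a1 (CD20, a B cell surface protein) was at -2.00, -0.26 and -2.83 in KI hearts and -2.28, -3.32 and -2.03 in WT hearts. In muscle Ms4a1 was at -3.16, -0.79 and -3.69 in KI mice against -2.51, -4.30 and -4.73 in WT, the last 2 not well above background. KI B was thus highest in both tissues. Of the whole lists on the array, the heart of KI B was the highest of the 6 hearts for 7 of 10 B cell genes, 7 of 10 T cell genes, 7 of 10 macrophage genes and 8 of 14 monocyte and neutrophil genes. That heart was also the highest for 6 of 10 skeletal muscle genes, 5 of 9 bile duct genes, 5 of 9 hepatocyte genes, 5 of 10 neuronal genes, 11 of 23 interferon-response genes and 10 of 23 mammary and glandular genes, so its high values were not limited to white blood cell genes. Its muscle was the highest for 6 of 10 B cell genes and 7 of 10 T cell genes, but also for 10 of 15 keratinocyte and squamous genes and 19 of 23 mammary and glandular genes. Krt5, a keratin of basal epithelium, was at 1.64 in that muscle and at -3.77 to -2.90 in the other 5. No share over all genes stands beside these counts of highest values, so they cannot show that a list stood out on its array. The part of these cell types in the Ly6d levels was not tested.

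In liver the B cell genes did not separate the genotypes. Cd79b, a chain of the B cell receptor complex, was at 1.84, 1.66 and 0.62 in KI livers and 1.65, 0.23 and -0.16 in WT livers. Ms4a1 was at -0.07, -0.44 and -1.98 in KI and -0.60, -2.28 and -2.43 in WT livers. For both genes WT D lay among the KI livers. Ly6d was chosen on its liver values, so its separation there is no basis for a contrast with these genes. The summed level of 10 B cell genes was 7.20 to 22.1 in KI and 5.70 to 19.6 in WT livers, and of 7 genes tested 0 passed in limma, 0 were under an unadjusted p of 0.05 and 0 did not overlap, with a median difference of 0.73 against 0.04 over all genes. Of 9 macrophage genes tested, 8 were higher in KI livers with no overlap, and their summed level was 134 to 149 in KI and 79.3 to 99.2 in WT livers. Of 13 monocyte and neutrophil genes, 6 were higher with no overlap and 1 lower, and the summed level was 74.7 to 163 in KI and 60.4 to 138 in WT livers. The median difference was 0.63 for the macrophage genes and 0.64 for the monocyte and neutrophil genes, and 0 of either list passed in limma (8 and 7 at an unadjusted p under 0.05). Over all genes tested in liver, 19.7% did not overlap and 11.7% were under that unadjusted p. Squamous genes had a summed level of 61.2 to 74.4 in KI and 58.0 to 70.3 in WT livers, with a median difference of -0.07, and 1 of 8 tested was higher in KI with no overlap and under an unadjusted p of 0.05. The brightest genes weigh most in these sums, which therefore do not speak for a whole list. In liver the brightest were Jchain and Cd79b (B cells), Cd5l and Csf1r (macrophages), Csf3r and Elane (monocytes and neutrophils) and Perp and Trp63 (squamous). Csf3r was brighter still in muscle, with means of 7.42 in KI and 7.72 in WT against 6.34 and 6.21 in liver. Whether more white blood cells account for the Ly6d level of KI livers was not tested.

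**Figure D2:**
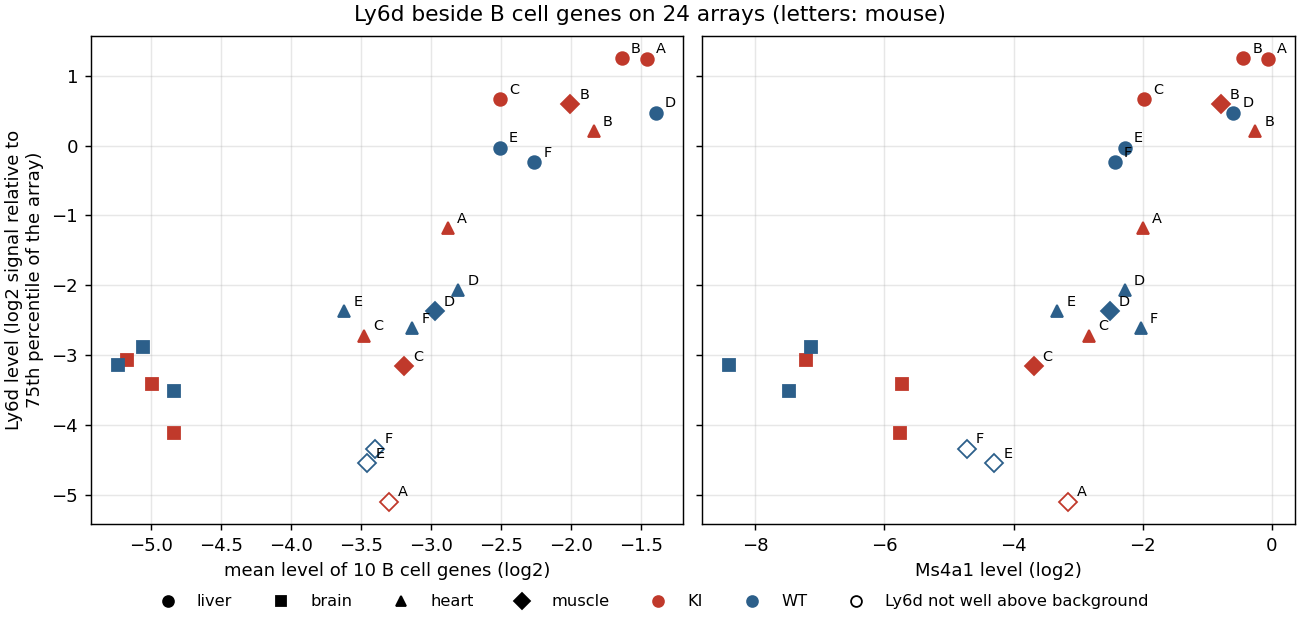
Level of Ly6d on the vertical axis against the mean of 10 B cell genes (left) or Ms4a1 (right) on the horizontal axis (all log2 signal relative to the array's 75th percentile), 1 point per array, with the shape giving the tissue, the color the genotype, the letter the mouse and open points a Ly6d probe not well above background. The muscle and the heart of KI B lie far above the other arrays of their tissue on both axes, at Ly6d levels of 0.59 and 0.20.

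The genes whose level followed Ly6d most closely over the 24 arrays, among 17177 genes, were Rac2 (Pearson r = 0.962), Cd52 (r = 0.954), Ltb (r = 0.949), Cd72 (r = 0.935) and Fcgr4 (r = 0.935). Rac2 is a small GTPase of blood cells, Cd52 and Ltb (lymphotoxin beta) are made by lymphocytes, Cd72 is a B cell coreceptor and Fcgr4 an Fc receptor of macrophages and neutrophils. These are descriptions: the 24 points share 6 mice and 4 tissues, so a gene that differs between tissues in the same order scores high. Over the same arrays the r of Ly6d with the mean of a marker list was 0.88 for T cells, 0.85 for B cells, 0.85 for macrophages, 0.81 for mammary and glandular epithelium, 0.80 for liver sinusoidal endothelium, 0.79 for interferon response, 0.73 for monocytes and neutrophils, 0.71 for bile duct epithelium and 0.57 for keratinocytes and squamous epithelium. The r with the endothelial, hepatocyte, neuronal, cardiomyocyte and skeletal muscle lists is not given here, so these values do not rank all lists. Within a tissue, with 6 arrays each, r with the B cell list was 0.99 for muscle, 0.91 for heart, 0.76 for liver and -0.79 for brain. Some other lists followed Ly6d as closely or more so, and others less closely. Ly6d was chosen on its liver values, so lists and genes that are higher in KI livers score high within liver by that choice. In liver r was 0.96 for monocytes and neutrophils, 0.93 for interferon response, 0.84 for macrophages, 0.83 for T cells and -0.52 for keratinocytes and squamous epithelium. In heart it was 0.97 for T cells, and in muscle 0.996 for macrophages and 0.95 for bile duct epithelium. The values of r within heart and muscle lean on KI B. Its Ly6d level was 0.20 in heart and 0.59 in muscle, with the next highest arrays at -1.18 and -2.37. Only 3 of 6 muscles were well above background for Ly6d. The nearest genes within 6 livers were Arhgap25, Dhx34, Ptgir, Dut and Aoc1 (r = 0.997 to 0.992), within 6 hearts Septin1, Pvalb, Ltb, Cacna1i and Wdsub1 (r = 0.997 to 0.990) and within 6 muscles Blvrb, Dmtn, Ampd2, Pitpnm1 and Slc46a1 (r = 0.993 to 0.992). Ltb alone was among the nearest 5 both over all arrays and in 1 tissue, the heart.

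Ly6k, a gene of the same cluster, was dim throughout and did not share the tissue order of Ly6d. Its mean level was -2.90 in heart, -3.46 in liver, -3.98 in brain and -4.10 in muscle. Liver levels were -3.08, -2.34 and -4.92 in KI mice against -3.60, -3.05 and -3.75 in WT, where KI C was not well above background. KI livers thus held both the highest and the lowest value, and the difference was 0.02 (SE 0.63, 95% interval -1.49 to 1.53, limma adjusted p = 0.993). Hearts were at -4.11, -1.98 and -3.07 in KI mice against -2.08, -2.63 and -3.53 in WT, a difference of -0.31 (SE 0.58, limma adjusted p = 0.971). Heart exceeded brain by 1.08 (limma adjusted p = 0.0248) and muscle by 1.20 (limma adjusted p = 0.0168), in 6 of 6 mice each, and the last difference was 0.04 with a normexp background correction (adjusted p = 0.867). The call against brain was lost under quantile normalization (adjusted p = 0.0566), under median centering (0.0522) and without WT D (0.0873) or WT E (0.0608). The call against muscle was lost without WT D (adjusted p = 0.0501) or WT E (0.0852). No difference of liver from another tissue passed (limma adjusted p = 0.162 to 0.250), although liver exceeded brain by 0.78 with normexp (adjusted p = 0.00180) and muscle by 1.01 with quantile normalization (adjusted p = 0.0334). Ly6k was well above background in 3 of 6 muscles and was not tested between genotypes there.

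Ly6e was bright in every tissue and highest in liver. Liver levels were 6.25, 6.83 and 6.36 in KI mice against 6.94, 6.92 and 6.60 in WT. KI A and C were below all WT livers and KI B was among them, with 6.48 ± 0.30 in KI and 6.82 ± 0.19 in WT (SD, n = 3) and a difference of -0.34 (SE 0.19, 95% interval -0.80 to 0.12, limma adjusted p = 0.493). Ly6e is induced by interferon, and of 23 interferon-response genes tested in liver 23 were higher in KI by their means, 8 of them with no overlap, with a median difference of 0.31. None of these 23 passed in limma, and 7 were under an unadjusted p of 0.05. Among all genes tested in liver, 19.7% did not overlap, 11.7% were under that p and the median difference was 0.04. In heart Ly6e was at 5.13, 4.60 and 4.37 in KI mice against 4.62, 4.59 and 4.13 in WT, a difference of 0.25 (SE 0.24, limma adjusted p = 0.971). Brain levels were 3.91, 4.61 and 3.81 in KI mice against 4.16, 4.45 and 4.00 in WT, and muscle levels 2.29, 3.89 and 3.15 in KI mice against 2.75, 2.66 and 3.33 in WT, with the genotypes mixed in both. The order of means was liver 6.65, heart 4.57, brain 4.16 and muscle 3.01. Liver exceeded heart by 2.08 (SE 0.23, 4.22-fold, limma adjusted p = 9.87e-08) and brain exceeded muscle by 1.14 (SE 0.23, limma adjusted p = 0.000147), while heart and brain differed by 0.42 (SE 0.23, limma adjusted p = 0.103). Without KI B, brain minus heart was -0.57 and passed (limma adjusted p = 0.0189). The nearest genes over 24 arrays were Idnk, Cilk1, Galk1, Tbc1d2b and Aldh9a1 (r = 0.984 to 0.978).

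Ly6a and Ly6c1, both known from endothelial cells, were highest in heart. Heart levels of Ly6a were 3.83, 3.40 and 3.72 in KI mice against 3.63, 3.69 and 3.52 in WT, the narrowest range of the 4 tissues. Its tissue means were 3.63 in heart, 2.43 in liver, 2.43 in muscle and 2.06 in brain. Heart exceeded liver by 1.21 (limma adjusted p = 1.92e-05), muscle by 1.20 (limma adjusted p = 3.14e-05) and brain by 1.57 (limma adjusted p = 7.26e-07), each with SE 0.20. No difference among liver, muscle and brain passed (limma adjusted p = 0.0958 to 0.984). Without KI A, liver against brain (limma adjusted p = 0.0253) and brain against muscle (limma adjusted p = 0.00979) did pass. The latter also passed without WT E (limma adjusted p = 0.0490). Summed over 15 endothelial genes, the level was 166 to 248 for hearts, 111 to 142 for muscles, 56.6 to 94.3 for livers and 34.9 to 44.1 for brains. The r of Ly6a with the mean of that list was 0.82 over 24 arrays, and Tek, an endothelial receptor, was among the 5 genes nearest to it (r = 0.928, with Slc25a34, Tg, Acot2 and Axl).

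Between genotypes, Ly6a in liver was at 2.15, 2.81 and 2.82 in KI mice against 2.40, 2.29 and 2.09 in WT. KI B and C were above all WT livers and KI A was among them, which gave a difference of 0.33 (SE 0.21, 95% interval -0.18 to 0.84, limma adjusted p = 0.523). In heart, brain and muscle the genotype means of Ly6a lay within 0.04 of each other. Muscle values were 1.66, 2.79 and 2.82 in KI mice against 2.26, 2.11 and 2.94 in WT, and brain values 1.91, 2.37 and 1.90 in KI mice against 1.79, 2.39 and 2.02 in WT.

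Ly6c1 followed the same split of the KI livers. On its brighter probe, liver levels were 4.02, 5.16 and 5.28 in KI mice against 3.75, 4.00 and 4.31 in WT. Again KI B and C were above all WT livers and KI A was among them, whereas in Ly6d KI A and B were the highest. The group levels were 4.82 ± 0.70 in KI and 4.02 ± 0.28 in WT livers (SD, n = 3), a difference of 0.80 (SE 0.35, 95% interval -0.05 to 1.65, limma adjusted p = 0.437). Its other probe gave liver levels of -2.10, -1.76 and -1.68 in KI mice against -1.80, -2.36 and -2.02 in WT, a difference of 0.21 (SE 0.19). KI B and C were the highest there too, by less.

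**Figure D3:**
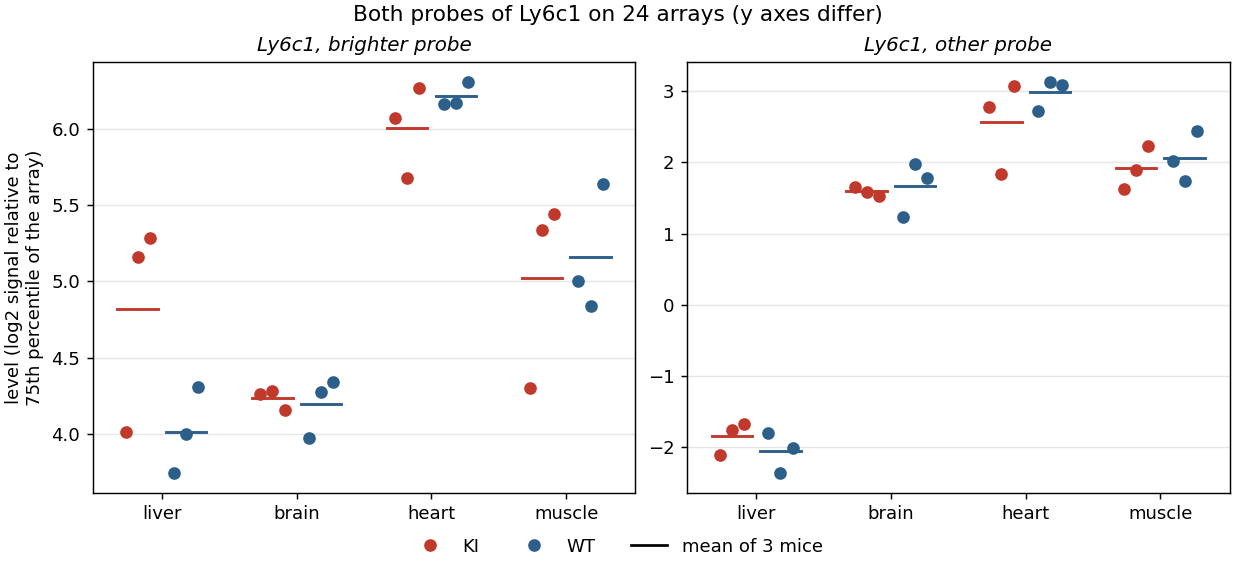
Level of both Ly6c1 probes (log2 signal relative to the array's 75th percentile, vertical axes differ) in KI mice (red) and WT mice (blue) of each tissue, with a line at the mean of 3 mice. On both probes heart is highest, but liver, at a mean of 4.42 and above brain on the brighter probe, is the lowest tissue on the other probe, at -1.95.

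The probes of Ly6c1 disagreed on liver. The brighter probe had tissue means of 6.11 in heart, 5.09 in muscle, 4.42 in liver and 4.22 in brain, and the other 2.77 in heart, 1.99 in muscle, 1.63 in brain and -1.95 in liver. Liver minus brain was 0.20 on the first (SE 0.22, limma adjusted p = 0.404) and -3.58 on the second (limma adjusted p = 1.92e-12). Ly6c2, its near copy, was not matched to a probe, and a probe for one can bind transcripts of the other, so levels of Ly6c1 are uncertain to that extent, as are those of Ly6a. On the brighter probe heart exceeded liver by 1.69 (SE 0.22, 3.22-fold, limma adjusted p = 1.05e-06), brain by 1.89 (SE 0.22, 3.70-fold, limma adjusted p = 2.40e-07) and muscle by 1.02 (SE 0.22, 2.02-fold, limma adjusted p = 0.000501). Muscle exceeded brain by 0.87 (limma adjusted p = 0.00134), and liver by 0.67 (limma adjusted p = 0.00900). The first call was lost under quantile normalization (adjusted p = 0.855) and on the other probe (adjusted p = 0.0908), and the second with normexp (adjusted p = 0.0586) and under median centering (adjusted p = 0.227).

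The genotypes of Ly6c1 overlapped in the other tissues. Heart levels were 6.07, 5.68 and 6.26 in KI mice against 6.16, 6.17 and 6.31 in WT, muscle levels 4.30, 5.33 and 5.44 in KI mice against 4.9995, 4.84 and 5.64 in WT, and brain levels 4.26, 4.29 and 4.16 in KI mice against 3.98, 4.28 and 4.34 in WT. The differences were -0.21, -0.13 and 0.04. Ly6c1 had an r of 0.88 with the endothelial list over 24 arrays, and the genes near it included Hic1, Timm10, Dlx3 and Fbxl7 (r = 0.941 to 0.917). The muscles of KI B and WT D, the 2 with high neutrophil genes (Ngp, a neutrophil granule protein, was at 1.28 and 1.10 there), lay at 5.33 and 4.9995 for Ly6c1, inside the range of the other 4 muscles.

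Ly6h was a brain gene in these mice. Brain levels were 5.92, 6.13 and 6.34 in KI mice against 6.64, 5.71 and 6.33 in WT, and no other tissue came near them. Muscle was at -2.07, -0.81 and -1.78 in KI mice against -1.49, -0.96 and -3.68 in WT, with WT F lowest. Liver was at -4.17, -4.47 and -4.59 in KI mice against -4.31, -3.99 and -4.71 in WT, with KI C not well above background, and the heart mean was -4.48. Brain exceeded muscle by 7.98 (SE 0.35, 252-fold, limma adjusted p = 9.36e-14) and liver by 10.55 (SE 0.35, limma adjusted p = 1.21e-15). Muscle exceeded heart by 2.68 (SE 0.35, limma adjusted p = 1.81e-06, with 4 of 6 hearts well above background), and liver and heart differed by 0.11 (limma adjusted p = 0.788). The second Ly6h probe was at 2.76, 3.28 and 3.06 in KI and 3.57, 3.23 and 3.17 in WT brains and did not reach well above background elsewhere, so the muscle level rests on 1 probe. The mean of 10 neuronal genes had an r of 0.96 with Ly6h over 24 arrays, and its nearest genes were Gng7, Cacna1i, Ina, Arnt2 and Wdr17 (r = 0.991 to 0.988), of which Ina is a neuronal filament protein.

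The genotypes did not separate for Ly6h. KI minus WT was -0.10 in brain (SE 0.26, 95% interval -0.71 to 0.51, limma adjusted p = 1.00), -0.07 in liver (SE 0.22, limma adjusted p = 0.895) and 0.49 in muscle (SE 0.71, limma adjusted p = 1.00). In heart it was well above background on 2 of 3 arrays of each genotype and was not tested.

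**Figure D4:**
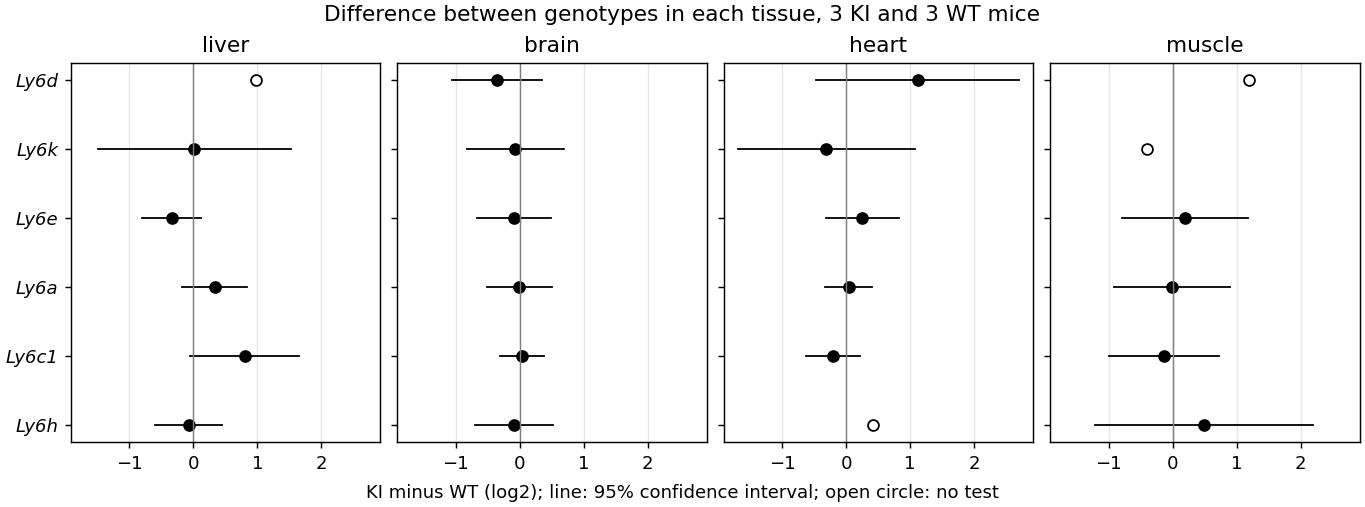
Difference between KI and WT (log2) for each Ly6 gene in each tissue, with 3 mice per genotype, lines for 95% confidence intervals and open circles for genes without a test, Ly6d in liver among them. Every interval drawn crosses 0, the nearest to doing otherwise being that of Ly6c1 in liver, from -0.05 to 1.65.

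Counted together, 0 Ly6 members passed an adjusted p of 0.05 between genotypes in limma: 0 of 5 tested in liver (without Ly6d), 0 of 6 in brain, 0 of 5 in heart and 0 of 4 in muscle. At an unadjusted p under 0.05 the counts were again 0 in each tissue, and none of these members had groups that did not overlap. The adjusted counts were 0 as well without any 1 mouse, KI B, KI C and WT D included. The background was also low: of all genes tested, 0% passed the adjusted threshold in each tissue, and 11.7%, 0.79%, 1.64% and 0.851% were under an unadjusted p of 0.05 in liver, brain, heart and muscle. The genotypes did not overlap for 2.86% of genes in brain, 5.02% in heart and 3.54% in muscle. With 3 mice against 3, an exact permutation test of 1 value cannot go below p = 0.10. The moderated F-test of whether the genotype difference varied between tissues passed for 0 of 5 members (limma adjusted p = 1.00 for each, 0 under an unadjusted p of 0.05), as for 0% of 17299 genes, with 1.86% under an unadjusted p of 0.05. The smallest p among the 5 was that of Ly6c1 (limma, unadjusted p = 0.128, or 0.0617 under the replicate block by mouse).

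Tissues, in contrast, differed for most members, as they did for most genes on the array. In limma, 3 of 6 passed between liver and brain (background 85%), 4 between liver and heart (79.3%), 4 between liver and muscle (83.3%), 5 between brain and heart (80.8%), 3 between brain and muscle (83.4%) and 5 between heart and muscle (68.1%). These shares were at or below the background except for 5 of 6 members in the last pair and in brain against heart, and 6 genes are too few to read more into them. Ly6d, chosen on its liver values, was among the members that passed in each pair with liver.

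The wider family gave a similar picture. Of 49 genes listed as the chromosome 15 cluster or as other Ly6/uPAR proteins, 42 were matched to a probe, 36 of them besides the 6 members. Between genotypes, 0 of the others passed in limma in any tissue, among 17 (liver), 22 (brain), 18 (heart) and 14 (muscle) tested, with 1 in liver and 0 elsewhere under an unadjusted p of 0.05. The median difference of the cluster genes tested was 0.14, 0.07, 0.08 and 0.02 in liver, brain, heart and muscle, against 0.04, -0.03, -0.05 and 0.02 over all genes. The gene under the unadjusted threshold was Ly6g6e, at -3.31 ± 0.13 in KI and -4.41 ± 0.38 in WT livers (SD, n = 3), with no overlap and a difference of 1.11 (SE 0.21, limma adjusted p = 0.358). It was 0.31 higher in KI brains (limma adjusted p = 1.00) and was not well above background in WT hearts and muscles.

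Some of these relatives matched a member in their tissue, and others did not. Lynx1, which acts on nicotinic receptors as Ly6h does, had mean levels of 5.22 in brain, 4.69 in heart, 3.48 in muscle and -1.27 in liver. Lynx1 was thus high in heart, where Ly6h was near background. Lypd1, another member with neuronal expression, was at 1.88 in brain and not well above background on any liver or muscle array. Gpihbp1, the endothelial protein that carries lipoprotein lipase into capillaries, was at 4.48 in heart, 3.42 in liver, 3.32 in muscle and -2.44 in brain. Its highest tissue was that of Ly6a and Ly6c1, but its brain level was 5.76 below muscle, where Ly6a differed by 0.37. Across the 36 other genes, 15 of 23 tested passed between liver and brain, 13 of 19 between liver and heart, 12 of 18 between liver and muscle, 18 of 23 between brain and heart, 16 of 23 between brain and muscle and 13 of 19 between heart and muscle. Over all genes tested the shares for these pairs, in the same order, were 85%, 79.3%, 83.3%, 80.8%, 83.4% and 68.1%. None of the family counts stood out above them.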

How the data were processed

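Total RNA of 24 tissue samples was labelled with Cy3 and hybridized to 1 Agilent array each. The authors extracted the intensities with Feature Extraction 12.0.3.1, per the file headers, and the deposited processed intensity, corrected for background by that program and not yet normalized between arrays, was used here. The authors' deposited score table (33912 features) held z-scores of the log signal within each array, to within 0.005, and served as an alternative.

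Outlier spots, of which an array had 121 to 347, and control spots were dropped before averaging each probe. From the deposited intensities, log2 of the signal minus log2 of the array's 75th percentile was taken. Gene symbols came from matching RefSeq accessions to the GRCm38.p6 gene table, which gave names only because the array was designed on mm9. The probe with the highest mean stood for a gene. Tests needed that probe to be well above background in every mouse of either genotype or, between tissues, of any group. R 4.3.3 and limma 3.58.1 (lmFit, eBayes, two-sided) were fitted per tissue for genotype and over 24 arrays for tissues and the interaction, with Benjamini-Hochberg adjustment over all genes tested and a threshold of 0.05. Precision is limited by 3 mice per group. Fits were tested on simulated data. A summed level is the sum of linear signals relative to the 75th percentile over a list, so the brightest genes weigh most. A fold is 2 to the power of the difference.

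The members and marker lists were chosen with earlier results of these data known. The 6 members were named always, the other family genes where an adjusted p under 0.05 or, with none, no overlap and a difference of at least 1 was met, and the 5 genes of highest Pearson r for likeness, of which 1 is not reported here. Lynx1, Lypd1, Gpihbp1 and single markers were named after their values were seen. The same 6 mice gave all tissues, so the mouse was fitted as a replicate block in an alternative. Residuals of arrays of the same mouse had a mean r of 0.014, and those of other mice -0.0065. Alternatives were quantile normalization, normexp background (offset 50), median centering, the deposited scores, no filter, the mean of all probes, array weights, age, slide, 1 fit over all arrays and leaving out each mouse.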

Additional observations from a re-analysis of the deposited data

How the results depend on the processing

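Between genotypes, none of 318 alternatives for the tested members passed an adjusted p of 0.05 (lowest 0.256). Ly6d in liver kept its direction throughout and was 0.24 in the units of the deposited scores. Between tissues, the count of members that passed was 3 under quantile normalization and 3 under median centering for brain against heart (5 as reported) and 5 with normexp for brain against muscle (3 as reported). Leaving out each mouse gave 3 to 5 for liver against brain and 3 to 6 for brain against heart. The gains in liver against brain were Ly6a and Ly6c1, both without KI A (limma adjusted p = 0.0253 and 0.0334). The mouse as a replicate block changed 1 call, Ly6d in heart against muscle (adjusted p = 0.0448), and those counts were then 3, 4, 4, 5, 3 and 6. The age term changed no call, and heart slides followed age.

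Every sign that turned belonged to a difference that had not passed as reported, but between tissues some turned values did pass. In liver, KI minus WT for Ly6h was 0.076 (quantile), 0.17 (normexp), 0.0090 (median centering), 0.16 (mean of probes) and 0.40 (other probe), and for Ly6k -0.01 (scores). In brain, Ly6a was 0.013 (quantile), 0.0067 (scores) and 0.13 (array weights), Ly6c1 was -0.011 (median centering), -0.017 (mean of probes) and -0.071 (other probe), and Ly6h was 0.0033 (scores). In heart, Ly6a was -0.013 (median centering). In muscle, Ly6a was 0.0090 (median centering) and 0.21 (array weights), Ly6c1 was 0.12 (array weights) and Ly6h was -0.14 (other probe). The other-probe settings were chosen after the data were seen.

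Between tissues, Ly6c1 in liver minus brain was -0.69 (quantile), -0.04 (scores), -1.69 (mean of probes) and -3.58 (other probe). All but the scores value passed (limma adjusted p = 0.00602, 1.04e-07 and 1.92e-12). Ly6a in liver minus muscle was 0.030 (normexp) and 0.34 (median centering), and Ly6k -0.13 (normexp). Ly6e in brain minus heart was 0.028 (quantile). Brain minus muscle was -0.91 for Ly6k (normexp, limma adjusted p = 0.000423) and 0.02 for Ly6d (scores). With normexp Ly6d kept its sign there, at -1.09, and passed (limma adjusted p = 0.0136). The cause was not tested.

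In fits that left out 1 mouse, signs turned for Ly6h (-0.26 to 0.10) and Ly6k (-0.54 to 0.75) in liver, and in brain for Ly6a (-0.16 to 0.16), Ly6c1 (-0.075 to 0.11), Ly6e (-0.34 to 0.052), Ly6h (-0.36 to 0.11) and Ly6k (-0.32 to 0.20). They also turned for Ly6a (-0.052 to 0.16) and Ly6k (-0.85 to 0.22) in heart and for Ly6a (-0.21 to 0.37), Ly6c1 (-0.34 to 0.23), Ly6e (-0.19 to 0.61) and Ly6h (-0.33 to 1.03) in muscle. Between tissues they turned for Ly6h in liver against heart (-0.088 to 0.28), Ly6a in liver against muscle (-0.094 to 0.17), and Ly6d (-0.69 to 0.47) and Ly6k (-0.053 to 0.20) in brain against muscle.

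Of the 5 genes most like Ly6d over 24 arrays, 3 were shared with Spearman's rho and 3 with quantile normalization, within 6 livers 2 and 1, within 6 hearts 0 and 3 and within 6 muscles 0 and 2. Spearman's rho tied 40 genes at the top in hearts and 79 in muscles. Dim probes (Ly6k, Ly6h outside brain, Ly6d in muscle) lay near background, where levels are least certain.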
